A study of Homo sapiens with 8 samples.

Results

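The levels of 5 genes of glutamine metabolism were followed across the arrays of 2 T cell lines. GLUL encodes glutamine synthetase, GLUD1 the mitochondrial glutamate dehydrogenase, SLC1A5 the plasma membrane importer ASCT2, and GOT1 and GOT2 the cytosolic and mitochondrial aspartate aminotransferases. Each of the 5 symbols named exactly 1 probe set in the platform annotation, so the set is 5 of 17709 named probe sets, and all 5 passed the filter on low values. GLUL lies on chromosome 1, GLUD1 and GOT1 on 10, SLC1A5 on 19 and GOT2 on 16. GLUL was chosen by its level differences in MT-1 and between the untreated lines on these same arrays, and the other 4 genes were selected to stand beside it. The levels and differences of the 5 are therefore given as descriptions, without a test.

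The study measured gene expression on 8 1-colour arrays, 1 for each line and treatment. MT-2, which the labels give as infected with HTLV-1, was cultured with 100 nM OR21 and 500 nM EPZ-6438 together, with 100 nM OR21, with 500 nM EPZ-6438, or untreated. MT-1, which the labels give as adult T cell leukaemia (ATL), was cultured with 500 nM OR21 and 2500 nM EPZ-6438 together, with 500 nM OR21, with 2500 nM EPZ-6438, or untreated. Exposure lasted 96 h, with compound added at seeding and again at 48 h. OR21 is a DNA demethylating agent, and EPZ-6438 (tazemetostat) inhibits EZH2, the methyltransferase that places the repressive mark H3K27me3. The doses differed between the lines by 5-fold, so a treatment is not the same exposure in both. A group is 1 array of an established line, and no difference within a line has a replicate error. The number of arrays limits the precision.

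Glutamine synthetase joins ammonia to glutamate and is the only human enzyme known to make glutamine, so a cell without it depends on glutamine from outside. Glutamine that enters through carriers such as ASCT2 is turned into glutamate. Glutamate dehydrogenase or the transaminases then turn glutamate into alpha-ketoglutarate for the citric acid cycle, and the aspartate aminotransferases also serve the malate-aspartate shuttle. Dividing T cells and many leukaemias take up glutamine at a high rate, and GLUL is best known from astrocytes and from hepatocytes around the central vein.

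All values are log2 levels as deposited, and a difference of 1 is 2-fold. A level was called above background where it exceeded the signal that 95% of the 612 negative controls on its array stayed below, a mark that lay between 7.19 and 7.80. Where only 1 of the arrays compared was above background, its level was set against the background of the dimmer array, which gives a bound. Array medians lay between 6.44 and 6.68, and between 8126 and 9718 probe sets per array were above background. The table does not state its log base, and its highest value, 18.91, exceeds the 16 that a 16-bit scanner can reach in log2 units. Folds given here assume that the values are log2.

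The T cell character of the lines was checked first. Of 11 T cell markers with a probe set, 4 or 5 were above background on the MT-2 arrays and 6 on the MT-1 arrays. CD3D, CD3E and CD3G, which define the T cell receptor complex, and CD2 were not above background on any array. IL2RA, CD5 and CD247 were above background on all 8, CD4 in MT-2 alone, and PTPRC and CD28 in MT-1 alone. CD28 stood at 8.72 in MT-1 with the combination, against 12.80 untreated, and CD247 at 8.72 against 10.89, so both were lower on the array where GLUL was highest. The other T cell markers above background there differed by less. CD5 (11.97 against 12.76), IL2RA (15.10 against 15.89) and CD7 (7.57 against 7.87) were lower, and PTPRC was higher (11.34 against 10.62). The part of these markers in the GLUL result was not tested. Of 7 astrocyte markers, SLC1A3 was above background in MT-2 and none in MT-1. Of 6 hepatocyte markers, SERPINA1 was above background in MT-2 and none in MT-1. The summed level of the astrocyte markers ran from 38.7 to 42.0 in MT-2 and from 33.0 to 35.5 in MT-1, that of the hepatocyte markers from 37.7 to 40.9 in MT-2 and from 28.9 to 30.0 in MT-1. SERPINA1 carried the hepatocyte gap, since the other 5 markers summed to 25.3 to 25.9 in MT-2 and 24.9 to 26.0 in MT-1. Without SLC1A3, the other 6 astrocyte markers summed to 28.8 to 31.4 in MT-2 and 27.9 to 29.5 in MT-1. Of 10 markers of B cells, myeloid cells and NK cells, 1 to 3 were above background on the MT-2 arrays and 0 to 2 on the MT-1 arrays. In MT-1 there were 2 on the array of the combination and 0 untreated. The 2 were CD79A (7.24) and MPO (7.30), just over the background of 7.19 on that array. Both levels lay below the background of the untreated array, 7.46, so the count depends on which background is used. On the untreated array CD79A (6.83) and MPO (6.99) were lower, and below both backgrounds.

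OR21 acts on DNA methylation, which is laid down at CG dinucleotides, so the start regions of the genes the results turn on are shown with every CG in capitals. Each window covers 250 bases before to 50 after an annotated start in RefSeq (GRCh38.p14), and all lie on the minus strand of their chromosome. GLUL has an upstream start with the window chr1:182391741-182392040 and a downstream start with chr1:182391292-182391591. GLUD1 (chr10:87094794-87095093) and GOT2 (chr16:58734267-58734566) are shown as the members that were lower by 1 or more with the combination in MT-1. Sequences run 5′ to 3′.
GLUL, upstream start: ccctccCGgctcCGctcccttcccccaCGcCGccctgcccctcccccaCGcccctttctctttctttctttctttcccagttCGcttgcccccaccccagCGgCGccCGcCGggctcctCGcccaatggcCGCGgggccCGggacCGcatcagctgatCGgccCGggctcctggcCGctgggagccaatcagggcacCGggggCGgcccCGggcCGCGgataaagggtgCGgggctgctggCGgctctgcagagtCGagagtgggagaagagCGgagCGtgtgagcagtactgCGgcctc
GLUL, downstream start: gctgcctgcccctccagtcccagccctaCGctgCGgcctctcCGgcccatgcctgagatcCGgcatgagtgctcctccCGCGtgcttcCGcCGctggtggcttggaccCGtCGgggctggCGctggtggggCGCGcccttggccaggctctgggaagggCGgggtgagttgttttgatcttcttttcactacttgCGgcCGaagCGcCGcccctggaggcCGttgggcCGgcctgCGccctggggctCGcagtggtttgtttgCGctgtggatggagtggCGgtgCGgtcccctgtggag
GLUD1: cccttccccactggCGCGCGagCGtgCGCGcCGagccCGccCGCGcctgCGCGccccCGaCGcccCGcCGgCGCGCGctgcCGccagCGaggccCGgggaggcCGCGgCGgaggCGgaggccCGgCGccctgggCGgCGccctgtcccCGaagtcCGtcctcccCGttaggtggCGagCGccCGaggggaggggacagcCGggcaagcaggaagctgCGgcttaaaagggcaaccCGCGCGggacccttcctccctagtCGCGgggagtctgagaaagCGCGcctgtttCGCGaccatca
GOT2: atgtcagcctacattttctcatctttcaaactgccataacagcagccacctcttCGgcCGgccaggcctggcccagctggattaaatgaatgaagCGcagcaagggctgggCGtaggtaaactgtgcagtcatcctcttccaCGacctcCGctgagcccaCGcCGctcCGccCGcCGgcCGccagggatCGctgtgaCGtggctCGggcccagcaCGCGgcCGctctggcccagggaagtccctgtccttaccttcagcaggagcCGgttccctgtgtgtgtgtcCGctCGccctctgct
The letters CG, which read the same on both strands, occurred 29 times in the upstream and 25 times in the downstream GLUL window. Over 35116 windows of the same 300 bases, the median was 14, and 24.2% and 32.0% of windows held at least as many as these. GLUD1 held 47 (2.41% of windows with at least as many), GOT2 21 (39.5%), GOT1 24 (33.9%) and the 3 windows of SLC1A5 24, 26 and 9. By CG count the GLUL windows thus lay inside the range of the other members. Methylation was not measured on these arrays, and a CG count says nothing of whether a site was methylated.

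GLUL was above background in MT-2 on all 4 arrays, and in MT-1 only where OR21 was given. In MT-2 its level was 11.72 with the combination, 11.59 with OR21, 11.93 with EPZ-6438 and 11.72 untreated. In MT-1 it was 13.87 with the combination, 10.31 with OR21, 5.33 with EPZ-6438 and 4.57 untreated. The MT-2 levels spanned 0.35, and those of MT-1 spanned from below the background of the untreated and EPZ-6438 arrays to the highest GLUL level of the series.

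Against untreated MT-1, GLUL was higher by at least 6.42 with the combination (at least 85.4-fold) and by at least 2.85 with OR21 (at least 7.22-fold). EPZ-6438 alone left it not above background, so no difference is given there. Ranked by the same bounded differences, GLUL was number 14 from the highest of 12942 probe sets with the combination and number 59 with OR21. The step that did not need the background level was the combination against OR21, both measured, where MT-1 was higher by 3.56 (11.8-fold, number 16 of 12942). The same step in MT-2 was 0.13. Against untreated MT-2, GLUL differed by 0.0016 with the combination, by -0.13 with OR21 and by 0.22 with EPZ-6438. In a bulk extract, more cells carrying the transcript and more transcript per cell cannot be told apart.

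The order of the lines in GLUL depended on the treatment. Untreated MT-2 was higher than untreated MT-1 by at least 4.26 (at least 19.2-fold), and with EPZ-6438 MT-2 was higher by at least 4.67. With OR21 the gap was 1.28, and with the combination MT-2 was lower than MT-1, at a difference of -2.15. Over the 12942 probe sets the median gap was -0.295 untreated and -0.24 with the combination. RefSeq lists 6 pseudogenes of GLUL, and how far the probe set separates them from the gene is not known here.

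**Figure D1:**
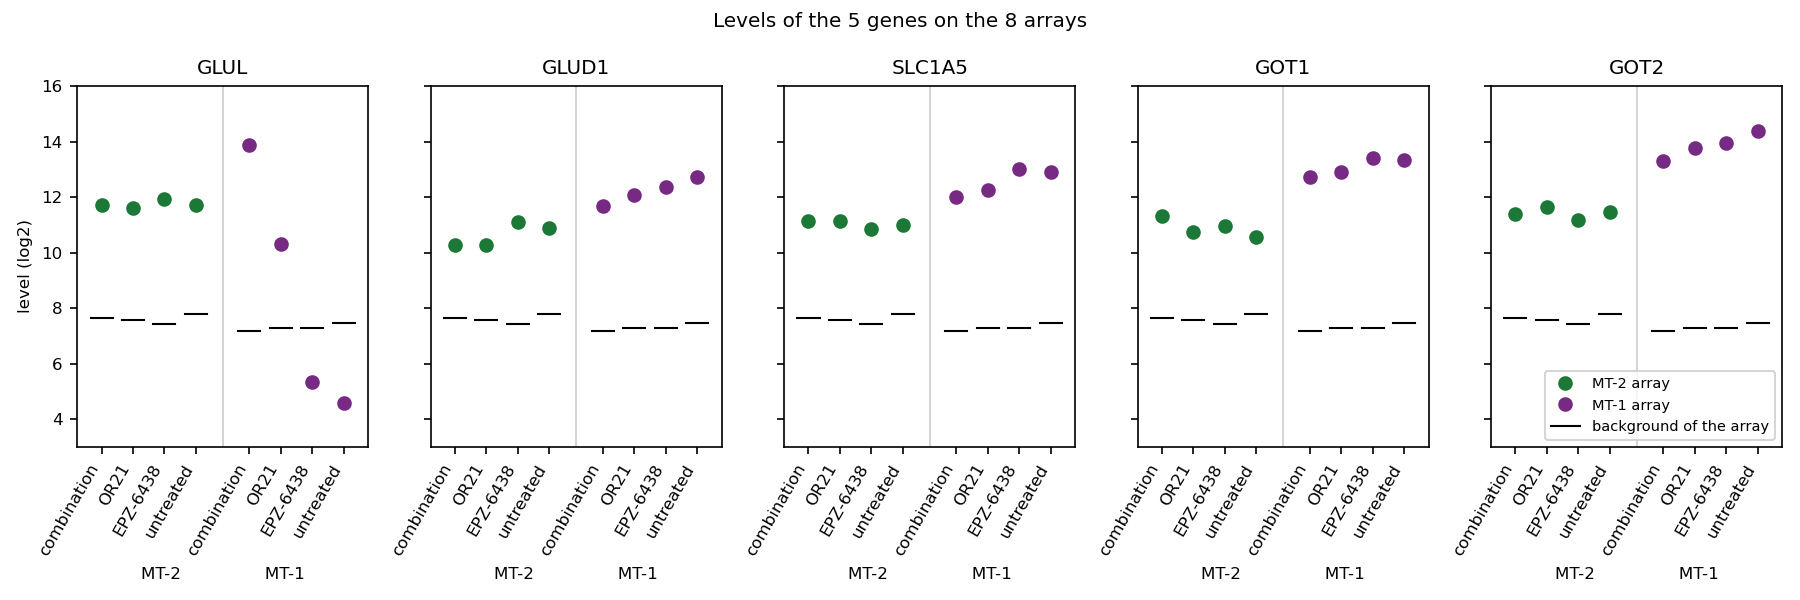
Level (log2, as deposited) of GLUL, GLUD1, SLC1A5, GOT1 and GOT2 on each array, with a panel for each gene and MT-2 arrays left of MT-1 arrays. The treatments run along the horizontal axis, and short black lines mark the array background. Each point is 1 array, and levels are not comparable between genes. GLUL stays between 11.59 and 11.93 in MT-2 and runs from 4.57 to 13.87 in MT-1, while the other 4 genes are above background on all 8 arrays.

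The other 4 genes did not share the GLUL pattern. All 4 were above background on all 8 arrays, their levels within a line spanned 0.28 to 0.85 in MT-2 and 0.67 to 1.10 in MT-1, and in MT-1 each was lower with the combination than untreated. GLUL was thus the only 1 of the 5 that was higher in MT-1 after the combination or OR21.

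GLUD1, which releases ammonia from glutamate in the mitochondrion, stood at 10.26 with the combination, 10.27 with OR21, 11.12 with EPZ-6438 and 10.89 untreated in MT-2. In MT-1 it stood at 11.69, 12.06, 12.38 and 12.73 in the same order. Both arrays with OR21 were the lowest of their line in each line. Against untreated cells the combination differed by -0.62 in MT-2 and -1.04 in MT-1, OR21 by -0.61 in MT-2 and -0.67 in MT-1, and EPZ-6438 by 0.23 in MT-2 and -0.35 in MT-1. It was the only member that was lower by more than 0.5 with OR21 and with the combination in both lines. RefSeq lists 6 pseudogenes of GLUD1, and its near-identical copy GLUD2 had no named probe set, so the GLUD1 signal is uncertain as to the single gene.

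SLC1A5, the glutamine importer, stood at 11.13 with the combination, 11.13 with OR21, 10.86 with EPZ-6438 and 10.98 untreated in MT-2, a span of 0.28. In MT-1 it stood at 11.99, 12.24, 13.00 and 12.91 in the same order. The MT-1 arrays fell into a lower pair with OR21 in the medium and a higher pair without it. The combination differed from untreated cells by 0.15 in MT-2 and -0.92 in MT-1, and OR21 by 0.16 in MT-2 and -0.67 in MT-1. With EPZ-6438 the differences were -0.12 in MT-2 and 0.095 in MT-1.

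GOT1, the cytosolic aspartate aminotransferase, stood at 11.34 with the combination, 10.75 with OR21, 10.96 with EPZ-6438 and 10.56 untreated in MT-2. In MT-1 it stood at 12.73, 12.91, 13.40 and 13.34 in the same order. The combination array was the highest of MT-2 and the lowest of MT-1. The difference from untreated cells was 0.78 in MT-2 and -0.61 in MT-1 with the combination, 0.20 in MT-2 and -0.42 in MT-1 with OR21, and 0.41 in MT-2 and 0.06 in MT-1 with EPZ-6438.

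GOT2, its mitochondrial partner, stood at 11.38 with the combination, 11.65 with OR21, 11.18 with EPZ-6438 and 11.45 untreated in MT-2. In MT-1 it stood at 13.29, 13.75, 13.94 and 14.39 in the same order, so every treated MT-1 array was below the untreated one. The combination differed from untreated cells by -0.07 in MT-2 and -1.10 in MT-1, OR21 by 0.20 in MT-2 and -0.64 in MT-1, and EPZ-6438 by -0.27 in MT-2 and -0.46 in MT-1. RefSeq lists 7 pseudogenes of GOT2 and 0 of SLC1A5 and GOT1.

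With a threshold of 1 log2 unit, the combination in MT-1 left 1 of the 5 members higher (GLUL) and 2 lower (GLUD1 and GOT2), where 6.35% of the 12942 probe sets were higher and 7.99% lower. After cyclic loess normalization GLUL alone was past 1, with GLUD1 at -0.86 and GOT2 at -0.93. After quantile normalization 2 members were past 1, GLUL and GOT2 (-1.04), with GLUD1 at -0.93. After median centring 4 were, since SLC1A5 (-1.16) joined GLUL, GLUD1 (-1.28) and GOT2 (-1.33). OR21 in MT-1 left GLUL higher and none lower, against 2.11% of all probe sets higher and 2.76% lower. EPZ-6438 in MT-1 left 0 members past 1, against 0.232% and 0.131%. In MT-2, 0 members were past 1 in either direction with the combination (2.47% of all probe sets higher, 1.26% lower), with OR21 (0.672% and 0.904%) or with EPZ-6438 (0.27% and 0.108%). Since the members were chosen with these values in view, nothing is read from these shares.

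Between the untreated lines the members split 1 to 4. GLUL was higher in MT-2, and the 4 others were lower in MT-2, with differences of -1.85 for GLUD1, -1.93 for SLC1A5, -2.78 for GOT1 and -2.94 for GOT2. Over all probe sets 9.08% were higher in untreated MT-2 by 1 or more and 19.4% lower. These shares depend on the scaling, since 1175 probe sets were higher and 2513 lower as deposited, 1582 and 1603 with quantile normalization, and 1773 and 1469 with cyclic loess. The gaps of these 4 genes were below -0.8 under every treatment. They were smallest in size with the combination for SLC1A5 (-0.85), GOT1 (-1.39) and GOT2 (-1.92), and with EPZ-6438 for GLUD1 (-1.26).

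The combination was also set against the sum of the single agents, by adding the untreated level to that of the combination and subtracting the levels of both single agents. For GLUD1 this excess was -0.24 in MT-2 and -0.02 in MT-1, for SLC1A5 0.12 and -0.35, for GOT1 0.18 and -0.24, and for GOT2 0.0026 and -0.0061, MT-2 before MT-1 each time. GLUL had an excess of -0.08 in MT-2 and none can be given in MT-1, where 2 of its 4 levels were not above background. Over the probe sets above background on all 4 arrays of a line, the middle 90% of excess values ran from -0.50 to 0.71 in MT-2 (7757 probe sets) and from -0.67 to 0.74 in MT-1 (8483 probe sets). All 9 member values lay inside these ranges.

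The wider glutamine pathway was described with 5 lists of 57 genes in all, without the members. A named probe set was found for 51, and 41 passed the filter. Of the 41, 39 were above background on some array. The lists were chosen with earlier results of these data known. With the combination in MT-1, 2 of the 41 were higher and 13 lower by 1 or more, around a median of -0.65, where all probe sets had a median of -0.05. That is 31.7% lower, against the 7.99% of all probe sets given above. The full set also holds probe sets under background on every array, so these shares and medians are not like for like. Nothing is read from this contrast. The count depends on the scaling, with 17 of the 41 lower after median centring, 10 after quantile normalization and 9 after cyclic loess. Over all probe sets 1674, 895 and 669 were lower in the same order, against 1034 as deposited. With OR21 in MT-1 1 was higher and 2 lower (median -0.39), and with EPZ-6438 none was past 1 (median -0.13). In MT-2 the combination left 2 higher and 1 lower (median 0.06), and OR21 and EPZ-6438 left 0 past 1.

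The genes that were lower in MT-1 with the combination came from each of the 5 lists. Of the 9 tested genes listed as glutaminases and glutamine amidotransferases, not all of which serve nucleotide synthesis, 3 were lower. These were CAD, which opens pyrimidine synthesis (10.62 against 11.97 untreated, a difference of -1.35), and the purine enzymes PFAS (-1.25) and PPAT (-1.18). PFAS was lower in MT-2 as well, at 10.61 with the combination against 11.74 untreated (-1.13). Among the transaminases 1 of 5 was lower, PSAT1 of serine synthesis (13.10 against 14.71, -1.61).

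Of 8 transporters 4 were lower in MT-1 with the combination and 1 was higher. SLC38A5, a carrier of glutamine with sodium, stood at 10.75 with the combination, 11.88 with OR21, 12.56 with EPZ-6438 and 13.03 untreated, a difference of -2.28 for the combination. SLC7A5 (LAT1) and SLC3A2 (4F2hc), the partners of a heterodimer that exchanges glutamine for large neutral amino acids, differed by -1.24 and -1.02. The cystine-glutamate exchanger SLC7A11, which pairs with the same SLC3A2, differed by -1.16. SLC1A4, the neutral amino acid carrier closest to SLC1A5, was higher instead (12.43 against 11.08, 1.35).

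Among the mitochondrial carriers the glutamate importers differed in opposite directions. SLC25A22 was lower at 8.01 with the combination, against 9.81 untreated (-1.80). SLC25A18, which carries the same substrate, was higher at 9.59 against 7.76 (1.83), and at 9.46 with OR21 (1.71). The aspartate-glutamate carriers of the malate-aspartate shuttle, SLC25A12 (-1.01) and SLC25A13 (-1.03), were just past 1, beside the difference of -1.10 for GOT2. ALDH18A1 (-1.25) and PYCR1 (-1.48 or lower), which make proline from glutamate, were lower, and PYCR1 was also lower with OR21 (-1.10). In MT-2 the genes higher with the combination were the asparagine synthetase ASNS (11.57 against 10.47, 1.10) and the branched-chain transaminase BCAT1 (10.23 against 8.40, 1.83).

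**Figure D2:**
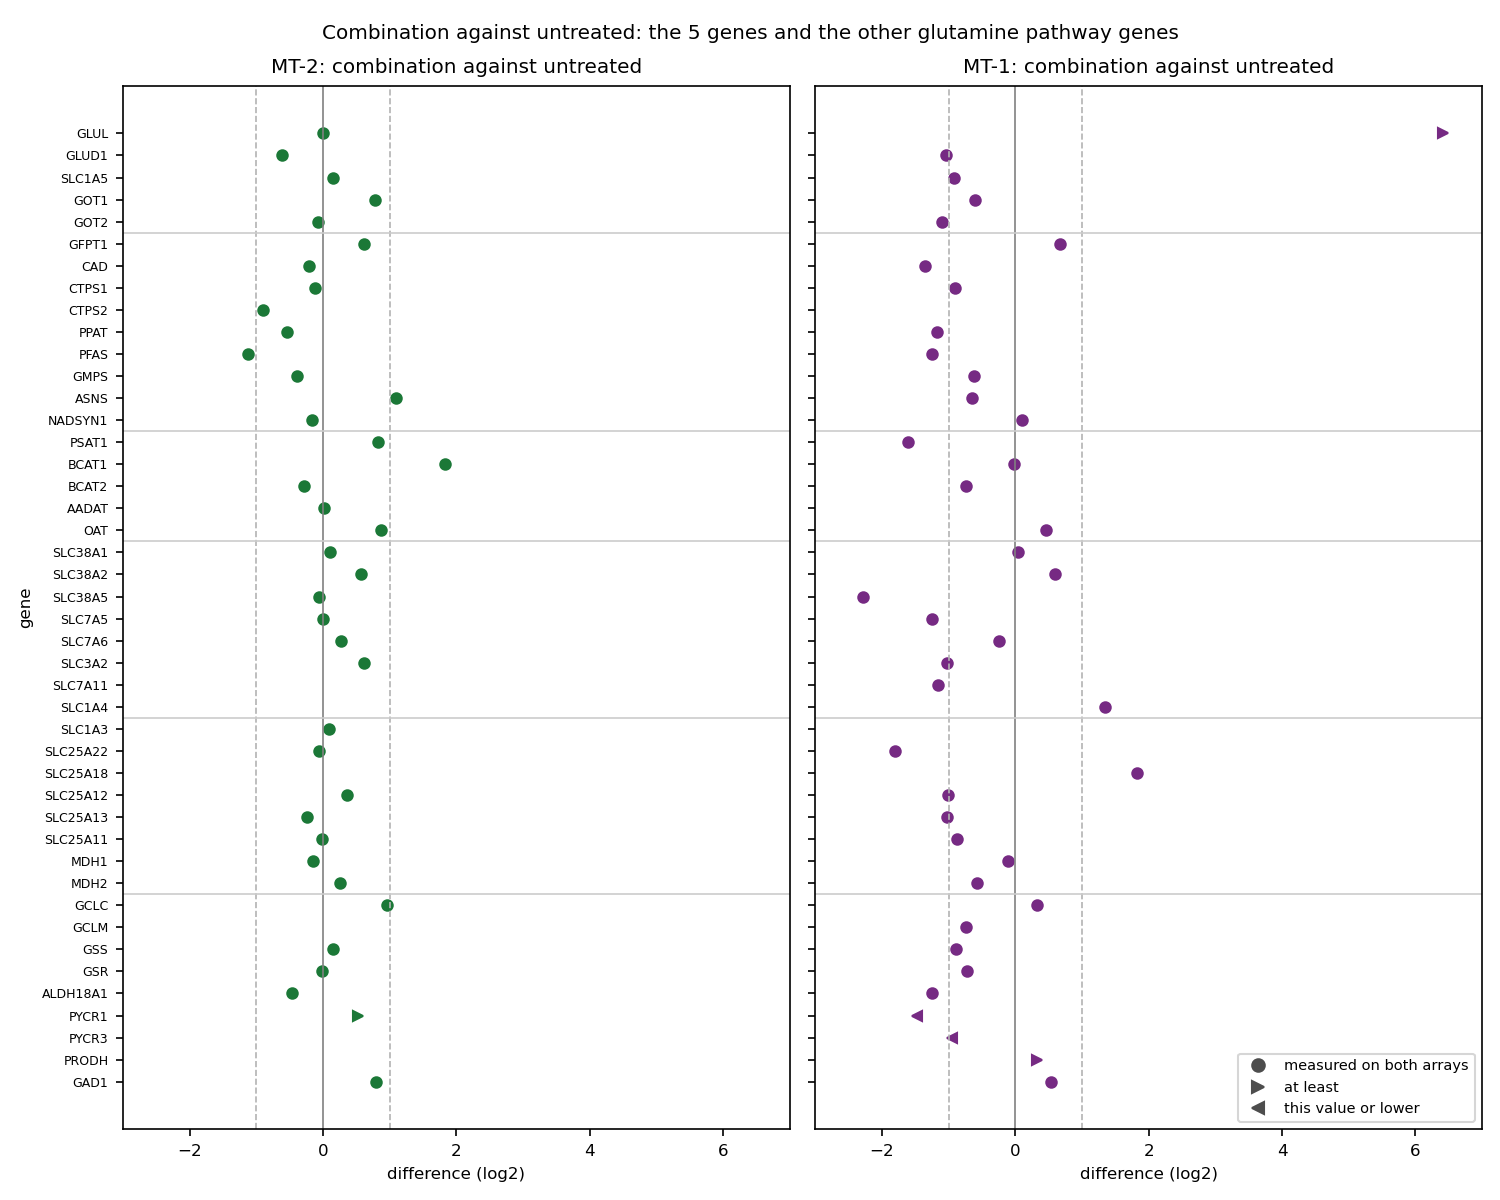
Difference from the untreated array of the same line (log2) with the combination, MT-2 left of MT-1, for the 5 members and for the other glutamine pathway genes by list. Each marker is 1 gene, circles were measured on both arrays, triangles are bounds against the background, genes without a marker were not above background, and dashed lines mark 1 and -1. Of the 41 other pathway genes, 1 is lower by 1 or more in MT-2 and 13 in MT-1.

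Across the lines, limma fitted line and treatment to all 8 arrays, with the disagreement of the lines as its spread. It called 0 of 12942 probe sets (0.0%) for OR21, 0 (0.0%) for EPZ-6438 and 0 (0.0%) for the combination at an adjusted p under 0.05. Unadjusted, 1079, 285 and 2489 probe sets had p under 0.05. Of the 41 pathway genes, 3, 0 and 11 did so. With the combination the lowest adjusted p in the pathway was that of PFAS (-1.19 ± 0.19 SE, limma adjusted p = 0.138). Without the MT-2 combination array, which leaves the MT-1 array alone to give the combination, 5 pathway genes were called. MT-1 within-line differences therefore stand as values of 1 array pair.

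The same fit gives the line difference over 4 treatments. Of the 41 pathway genes, 8 were higher in MT-2 and 18 lower (19.5% and 43.9%), close to the shares over all probe sets of 22.7% and 40.7%. Higher in MT-2 was GAD1, which makes GABA from glutamate (2.85, limma adjusted p = 2.89e-05). Also called higher were AADAT, the mitochondrial aminoadipate transaminase (at least 1.48, limma adjusted p = 4.38e-06), and SLC1A3, the glutamate transporter of astrocytes (at least 2.83, limma adjusted p = 2.23e-05). Both were above background on 0 of 4 MT-1 arrays, so their differences are bounds taken against the array backgrounds. The bounds themselves were not tested, because limma took the levels without that floor. Its adjusted p belongs to a difference of 5.06 for AADAT and 4.65 for SLC1A3. For SLC1A4 and CTPS2, given below as bounds too, it belongs to -4.37 and 3.53. Lower in MT-2 were SLC1A4 (-3.98 or lower, limma adjusted p = 9.28e-06, above background on 1 of 4 MT-2 arrays), BCAT1 (-4.03, limma adjusted p = 9.6e-05), ALDH18A1 (-3.21, limma adjusted p = 4.56e-05) and the ornithine aminotransferase OAT (-2.70, limma adjusted p = 3.38e-05). CTPS2 and CTPS1, both CTP synthases, differed in opposite directions, at least 2.93 for CTPS2 (limma adjusted p = 0.000286, above background on 1 of 4 MT-1 arrays) and -1.48 for CTPS1 (limma adjusted p = 0.000558). SLC1A1, a glutamate carrier, and GAD2 were also called higher in MT-2, but neither was above background on any array. The split depends on the scaling, since cyclic loess called 9 higher and 13 lower in the pathway, and 3946 higher and 3912 lower over all probe sets where the deposited scale called 2939 and 5267.

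Known regulators of glutamine synthetase formed a further list, of which 13 genes were tested. With the combination in MT-1, 1 was higher and 3 lower by 1 or more (7.69% and 23.1%, against 6.35% and 7.99% of all probe sets). This list too was chosen with earlier results known, so nothing is read from these shares. MYC, which drives glutamine uptake and use, stood at 12.33 with the combination, 13.35 with OR21, 14.30 with EPZ-6438 and 14.54 untreated in MT-1, a difference of -2.21 for the combination. In MT-2 MYC stood at 9.67, 9.90, 10.43 and 10.62 in the same order. The amino acid stress factor ATF4 was lower in MT-1 with the combination (13.36 against 14.55, -1.19), as was the Hippo effector YAP1 (6.18 against 8.68, -1.49 or lower).

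CTNNB1 encodes beta-catenin, which switches on GLUL in hepatocytes of the central vein. It was higher in MT-1 with the combination, at 13.75 against 12.69 (1.06), and in MT-2 stood at 13.23 against 12.66. Of 11 other genes that beta-catenin controls in those hepatocytes, 4 passed the filter, 2 were above background on some array, and 0 differed by 1 or more with the combination in either line. With so few genes, nothing is read from that count beside the shares over all probe sets. The T-box factor TBX3 stood at 9.86 in MT-1 with the combination, against 8.98 untreated (0.87), and AXIN2, a target in most tissues, was not above background on any array. FOXO1, a forkhead factor of the family that induces GLUL, was higher with the combination in MT-2 (9.86 against 8.82, 1.04). In MT-1 FOXO1 stood at 8.11 with the combination, against 6.98 untreated, which was not above background (a difference of at least 0.65). FOXO3, of the same family, stood at 9.78 in MT-2 both with the combination and untreated. In MT-1 FOXO3 stood at 10.39 with the combination, 10.56 with OR21, 10.58 with EPZ-6438 and 9.90 untreated. CRBN is the ubiquitin ligase receptor that takes glutamine synthetase for degradation when glutamine is plentiful. It was lower in MT-2 than in MT-1 over the 4 treatments (-2.05, limma adjusted p = 6.93e-05). The same fit called 40.7% of all probe sets lower in MT-2. In MT-2 CRBN stood at 7.69 with the combination, 7.76 with OR21, 7.99 with EPZ-6438 and 7.91 untreated. These levels lay close to the array backgrounds of 7.64, 7.56, 7.43 and 7.80. Protein was not measured.

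Genes with the GLUL pattern were sought among 997 named probe sets that were above background on at least 1 array and ranged over 4 log2 units or more. The measure was Pearson's r with GLUL over the 8 arrays, which share lines and treatments, and no p is given. The 6 with the highest r were the potassium channel KCNK1 (0.996), the Notch target repressor HES1 (0.992), the semaphorin receptor PLXND1 (0.989), the cytochrome CYP1B1 (0.988), the MARCKS relative MARCKSL1 (0.976) and HEY1, another Notch target repressor (0.971). Without MT-1 untreated and MT-1 with EPZ-6438, the arrays farthest from the GLUL median, r over 6 arrays was 0.959 for KCNK1, 0.912 for HES1, 0.996 for PLXND1, 0.934 for CYP1B1, 0.677 for MARCKSL1 and 0.95 for HEY1.

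KCNK1 stood at 10.67 with the combination, 10.11 with OR21, 10.81 with EPZ-6438 and 10.94 untreated in MT-2, and at 12.10, 9.13, 5.13 and 4.34 in MT-1. HES1 stood at 9.44, 9.33, 9.24 and 9.58 in MT-2, and at 11.03, 9.12, 5.11 and 5.03 in MT-1. Both were thus above background on every MT-2 array and, in MT-1, on the arrays with OR21 alone or in combination. Against untreated MT-1 the combination was higher by at least 4.64 for KCNK1, at least 3.57 for HES1, at least 4.43 for CYP1B1, at least 1.74 for PLXND1 and at least 1.62 for MARCKSL1. HEY1 was measured on both arrays and was higher by 4.01, and by 1.64 with OR21. PLXND1 was above background in MT-2 with EPZ-6438 alone, so most of its pattern lies below the background level. The start windows of KCNK1, HES1, PLXND1 and MARCKSL1 held 38, 21, 52 and 38 CG.

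**Figure D3:**
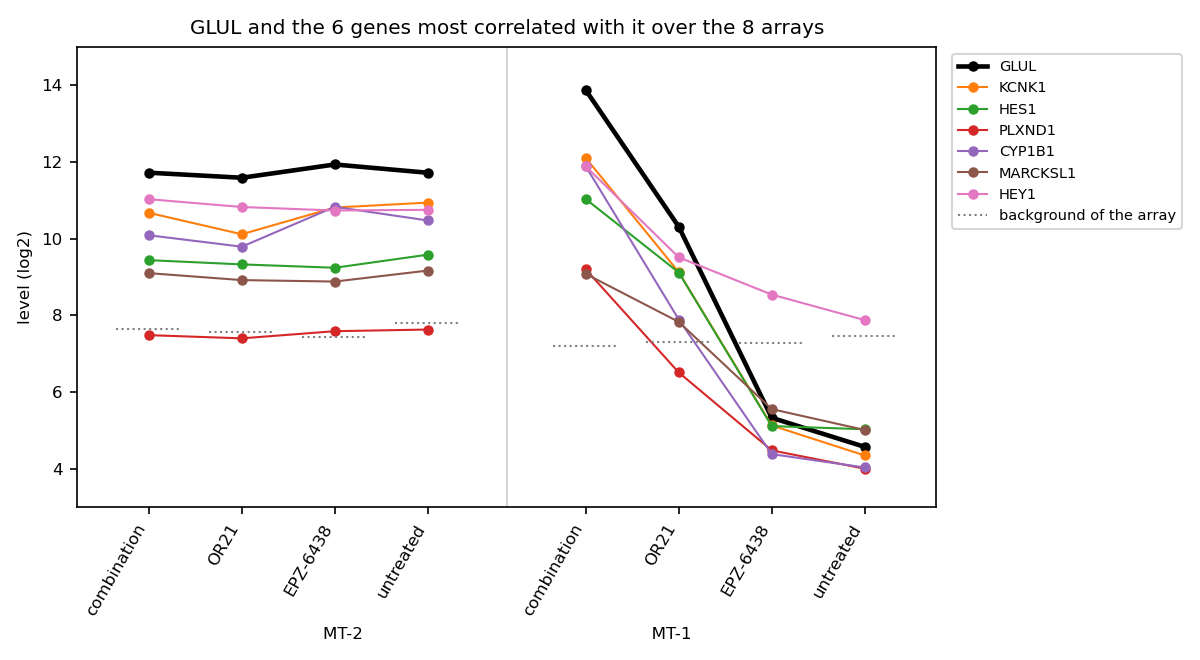
Level (log2, as deposited) on the 8 arrays of GLUL and of the 6 genes with the highest Pearson r with it, MT-2 arrays left of MT-1 arrays. Each line joins the arrays of 1 gene; all 7 are lowest on the untreated MT-1 array and reach their MT-1 maximum with the combination.

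How many genes share the GLUL pattern of presence was counted by steps. Of 11025 named probe sets that passed the filter, 2808 were not above background in MT-1 untreated and with EPZ-6438. Of these, 541 were above background on all 4 MT-2 arrays. Among the 541, 69 were higher by 1 or more with the combination in MT-1, and 18 of these also with OR21. GLUL is 1 of the 18, which it was bound to be, since its own pattern set the steps.

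The neighbours of GLUL on chromosome 1 were taken in annotation order, with 5 genes on each side that have a probe set. CACNA1E and ZNF648, next to GLUL on its left in the annotation, and TEDDM1, LINC00272 and RGSL1 on its right were not above background on any array, nor was RGS8. Beyond them, IER5, an immediate early gene, stood at 12.33 with the combination, 11.62 with OR21, 11.19 with EPZ-6438 and 10.99 untreated in MT-1 (a difference of 1.34 for the combination). STX6 and MR1 were higher with the combination in MT-1 by 0.80 and 0.84. RGS16, a regulator of G protein signalling, was 9.00 with the combination and not above background on the other 3 MT-1 arrays, a difference of at least 1.55, and stood between 10.59 and 11.40 in MT-2. RGS16 was the neighbour whose presence across the arrays was most like that of GLUL, but unlike GLUL it was not above background with OR21 alone in MT-1.

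**Figure D4:**
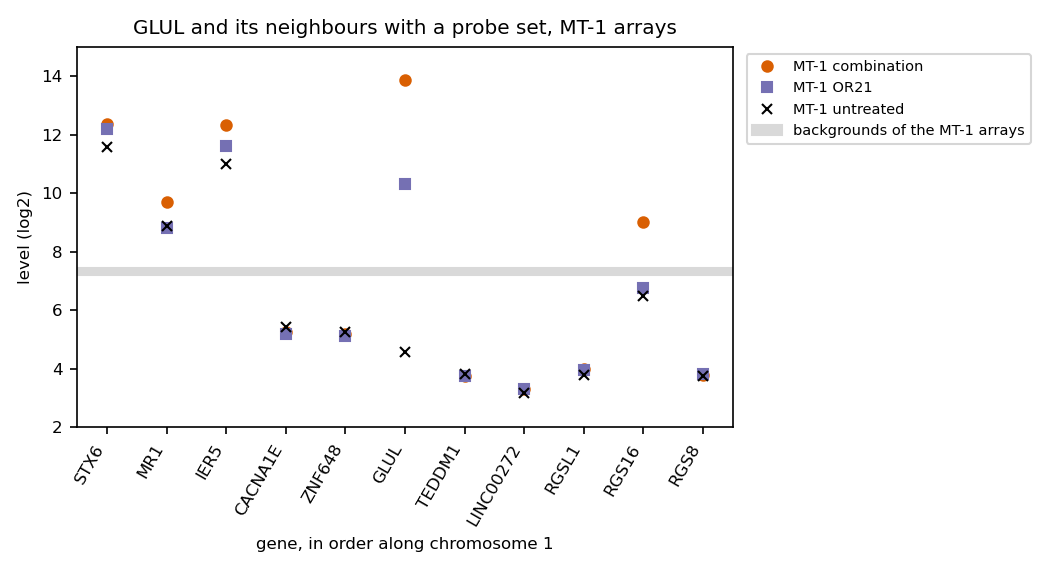
Level (log2, as deposited) of GLUL and of 5 annotated genes on either side of it on chromosome 1, in gene order and not to scale, in MT-1 with the combination, with OR21 and untreated. The grey band spans the backgrounds of the MT-1 arrays. Of the 10 neighbours, 6 are below background on every array, and RGS16 is 9.00 in MT-1 with the combination, against 6.50 untreated.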

How the data were processed

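Expression was measured on 8 arrays, 1 for each of 2 lines and 4 treatments. The authors deposited 1 table of log2 values made with RMA, per the submitters' processing notes; of its version, the array build and the log base nothing is stated. Values ran from 2.142 to 18.91, with 0 missing. Of 24351 entries, 2903 control probe sets were left out. Of the 21448 transcript probe sets, 17709 had 1 symbol in the platform annotation, 0 several and 3739 none.

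Python 3.11.15 took differences from the untreated array of a line, with the 95th percentile of 612 negative controls as background. Probe sets whose highest value reached the median, 6.573, were tested (12942). limma 3.58.1 in R 4.3.3 fitted line and treatment (3 residual degrees of freedom, Benjamini-Hochberg over 12942) and was tested on simulated data; the members were not tested in it. Samples were grouped by the labels' line and treatment. The labels state neither pooling of cultures nor scan batches.

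Named were the 5 members, list genes past 1 log2 unit or called by limma (up to 4 per list and direction), the 6 genes most like GLUL and 5 neighbours on each side. The members and all lists were chosen with earlier results of these data known. Alternatives were median centring, quantile and cyclic loess normalization, other backgrounds (the 99th percentile and the median of negative controls), no filter, an intensity trend and leaving out each array; taking no background floor was added after seeing the data.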

Additional observations from a re-analysis of the deposited data

Results flagged for a closer look

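GOT1 differed from untreated cells in opposite directions in the lines with the combination, by 0.78 in MT-2 and by -0.61 in MT-1. The difference between the lines was not tested, each value rests on 1 array pair, and the doses differed between the lines.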

How the results depend on the processing

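Of the 35 member differences, 6 alternatives each gave 210 values. The 99th percentile, the median of negative controls and no floor move only the background. Under them the differences of GLUD1, SLC1A5, GOT1 and GOT2, and of GLUL within MT-2, repeated the deposited values. Those differences were thus tried by the scalings alone, and 210 overstates the number of values that could move. No difference of 1 or more changed sign, 3 values of differences no larger than 0.06 did (GLUL in MT-2 with the combination, and GOT1 in MT-1 with EPZ-6438), and 20 moved by 0.25 or more, the median residual SD of the limma fit, which is a yardstick between lines and no replicate error; 12 of the 20 were GLUL values. GLUL in MT-1 with the combination was at least 5.19 with the 99th percentile of the negative controls as background, at least 9.23 with their median, and 9.31 with no floor. With OR21 it was 1.63, 5.67 and 5.74, and for the gap between the untreated lines 3.04, 7.08 and 7.15. Members past 1 in MT-1 with the combination numbered 4 with median centring, 2 with quantile normalization and 1 with cyclic loess, against 3. Pathway genes higher in MT-1 with the combination numbered 5 with no floor, against 2. With OR21 in MT-1, 7 pathway genes were lower with median centring, against 2, and 2 were higher with cyclic loess and 3 with no floor, against 1. Leaving out each array in turn, limma called 0 to 5 pathway genes for the combination and 20 to 29 for the line. The count of 5 came without the MT-2 combination array, where the lone MT-1 array is assumed to vary like the other groups, and 740 probe sets were then called in all. An intensity trend in eBayes called 10 probe sets for the combination. The limma fit pairs arrays by line; no pairing by replicate could be added, since each group holds 1 array. Signal over background limits GLUL in untreated MT-1 to a bound.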
